A study of Mus musculus with 6 samples.

Results

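The 9 genes of the mouse CK1 and CK2 protein kinase families, Csnk1a1, Csnk1d, Csnk1e, Csnk1g1, Csnk1g2, Csnk1g3, Csnk2a1, Csnk2a2 and Csnk2b, were followed in sorted marginal zone B cells. They were chosen by name, through the symbol that GENCODE M21 gives to each Ensembl identifier. All 9 are among the 14864 genes of the deposited table, and all 9 passed the filter on low values. The cells came from spleens of C57BL/6 mice aged 8 weeks. In 3 libraries the mice carried a conditional knockout of CK2α, labelled CK2α-cKO (cKO below), and in 3 libraries they were wild type (WT). CK2α is the product of Csnk2a1, so 1 member of the family is the targeted gene. The sources used here do not name the Cre line, the deleted exons, the Cre status of the controls or the number of mice behind a library. P-values therefore set a difference only against the scatter among these 6 libraries, and some of that scatter may be technical.

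CK2 is a constitutively active serine and threonine kinase that prefers acidic sites. It is built from catalytic subunits, CK2α from Csnk2a1 or CK2α′ from Csnk2a2, around a dimer of the regulatory subunit CK2β from Csnk2b. The CK1 isoforms are monomeric kinases of another family that often act on sites primed by an earlier phosphate. CK1α marks β-catenin for degradation, CK1δ and CK1ε phosphorylate the PERIOD proteins of the circadian clock, and the CK1γ isoforms are anchored in membranes by a lipid tail and act on Wnt receptors.

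The libraries held 23503756, 22005912 and 20054583 recovered reads in cKO and 18778776, 19593997 and 21067977 in WT. Values are given as the deposited normalised reads, in which 1 read was worth 0.891 to 1.10. Cd79a, which encodes a signalling chain of the B cell receptor, was high in every library, at 32322 to 38077 in cKO and 32558 to 36820.4 in WT, and Cr2, the complement receptor that marks marginal zone B cells, stood at 59691 to 76108 in cKO and 64330 to 68241 in WT. Sums of 8 marginal zone markers were 116715 to 146376 in cKO and 112384 to 120956 in WT, with 5 of the 8 up. Here up, rose, down, fell and called mean past a limma adjusted p of 0.05, by the fit described below. Of all genes tested 5.08% rose and 4.97% fell. Sums of 6 follicular B cell markers were 23775, 33523 and 24160 in cKO replicates 1, 2 and 3 and 35569 to 36704 in WT, with 5 of the 6 down. Of 7 T cell markers Cd4 and Cd8a were among the genes tested, with sums of at most 23.2 in cKO and 52.8 in WT. Sums of 7 myeloid markers were 1170.3 to 1831 in cKO and 1234 to 1897 in WT, with no gene called. Sums of 6 erythroid markers stood apart in single libraries, at 5003 in cKO replicate 1 and 11092 in WT replicate 2, against 671 to 1384 in the others, also with no gene called. Of 4 plasma cell markers tested Irf4 alone fell (sums 5448 to 7043 in cKO and 7155 to 11742 in WT). Irf4 made up most of these sums, at 5122 to 6693 in cKO and 6740 to 11322 in WT. Jchain was at most 221 in cKO and 373 in WT, Sdc1 133 and 94.4, and Prdm1 150 and 136. In each of them the groups overlapped, and none was called. Of 5 dendritic cell markers 1 rose (sums 300.4 to 409 in cKO and 311 to 355 in WT). Sums for neutrophils, with 3 of 5 markers tested, were at most 147 in cKO and 129.6 in WT, and Klrb1c, the 1 of 5 NK cell markers tested, was at most 19.6 in cKO and 18.6 in WT. For stroma and endothelium, with 3 of 6 markers tested, sums were 4301 to 5365 in cKO and 4396 to 5252 in WT. Pecam1 made up most of these sums, at 4219 to 5281 in cKO and 4330 to 5155 in WT. Cdh5 was at most 71.2 in cKO and 65.5 in WT, and Col3a1 at most 21.7 and 31.3. The part of these cells in the values below was not tested.

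The sequence of the targeted gene bears on what its read count can show. Csnk2a1 lies on chromosome 2, and chromosome 1 carries Gm10031, a gene model with a single exon that GENCODE M21 lists as protein-coding. Over the 1173 coding bases of Csnk2a1, Gm10031 differed at 1 base, T117C, counted from the A of the start codon. Its identity there was 99.9%, against 95.7% and 96.2% for the processed pseudogenes Csnk2a1-ps (chromosome X) and Csnk2a1-ps1 (chromosome 14) and 76.3% for the paralog Csnk2a2. Below are the coding bases around that position from the GENCODE M21 transcripts, Csnk2a1 and Gm10031 from coding base 70 to 159 and Csnk2a2 from 73 to 162. They are shown because they hold the only coding base that tells a Csnk2a1 read from a Gm10031 read. Capitals mark that base in Csnk2a1, and each base that differs from Csnk2a1 in the others.
Csnk2a1: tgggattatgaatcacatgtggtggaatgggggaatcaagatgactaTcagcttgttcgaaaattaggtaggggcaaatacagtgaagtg
Gm10031: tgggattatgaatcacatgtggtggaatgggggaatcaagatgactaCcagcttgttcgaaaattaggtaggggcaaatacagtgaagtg
Csnk2a2: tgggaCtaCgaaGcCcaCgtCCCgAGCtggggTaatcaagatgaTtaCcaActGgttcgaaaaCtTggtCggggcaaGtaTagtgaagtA
The stretch differs between Csnk2a1 and Csnk2a2 at 22 of 90 bases, which spread over its length, and no window of 50 bases of Csnk2a2 occurs in another gene.

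Of all windows of 50 bases in the coding part of the full-length Csnk2a1 transcript, 95.6% occur letter for letter in Gm10031. The share was 93.2% for windows of 75 bases, 90.7% for 100 and 88.6% for 150, lengths added after the data were seen because no source used here states the read length. In exon 2, which holds the start codon, and in each of exons 4 to 12 the share was 100%, in exon 3 it was 74.6%, and in exon 13, which is 2884 bases long and holds the end of the coding part and the 3′ untranslated part, it was 38.2%. A read that lies within a shared window matches both genes equally well. How the authors counted reads with several matches is not stated. Gm10031 itself was read at 24.1, 27.5 and 36.1 normalised reads in cKO and 23.1, 31.6 and 26.4 in WT, between 0.567% and 0.889% of the value of Csnk2a1 in the same library. The cKO and WT libraries overlapped for Gm10031 (log2 difference 0.10 ± 0.27, limma adjusted p = 0.852). Over the windows of all its transcripts together, Csnk2a1 shared 32.4% with Gm10031. Counted in the same way, Csnk1g3 shared 9.18% of its windows with the processed pseudogene Gm14584, which stood at 12.4 to 22.7 in cKO and 13.2 to 26.3 in WT, Csnk1e shared 2.58%, and the others at most 0.611%.

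**Figure D1:**
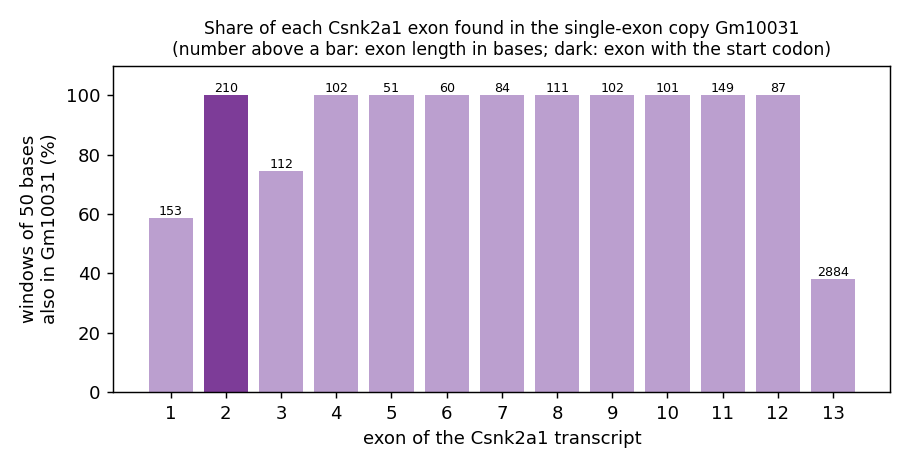
Share of windows of 50 bases (%) that also occur in the single-exon gene Gm10031, for each of the 13 exons of the full-length Csnk2a1 transcript, with the exon length in bases above each bar and the exon that holds the start codon in the darker colour. Exons 2 and 4 to 12 stand at 100%, exon 3 at 74.6%, exon 1 at 58.7% and the long last exon at 38.2%.

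No gene of the family passed the test between cKO and WT cells. With limma on log2(value + 1) and Benjamini-Hochberg adjustment over 14855 genes, 0 of the 9 passed an adjusted p of 0.05, where 10.1% of all genes did (5.08% rose and 4.97% fell). At an unadjusted p under 0.05 limma gave 1 of the 9, Csnk1a1, against 26.8% of all genes. edgeR and DESeq2 on the recovered reads called 0 of the 9 as well, against 9.71% and 11% of all genes. The median size of the log2 difference was 0.08 over the 9 genes and 0.16 over all genes tested, and the signed medians were 0.01 and -0.0009. By mean value the 9 genes lay between percentiles 53.7 and 95.7 of all genes tested, and sizes were not compared at equal level. In the text that follows a log2 difference is the cKO mean less the WT mean of log2(value + 1), with its standard error, and an interval is the unadjusted 95% interval of the ratio of cKO to WT.

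**Figure D2:**
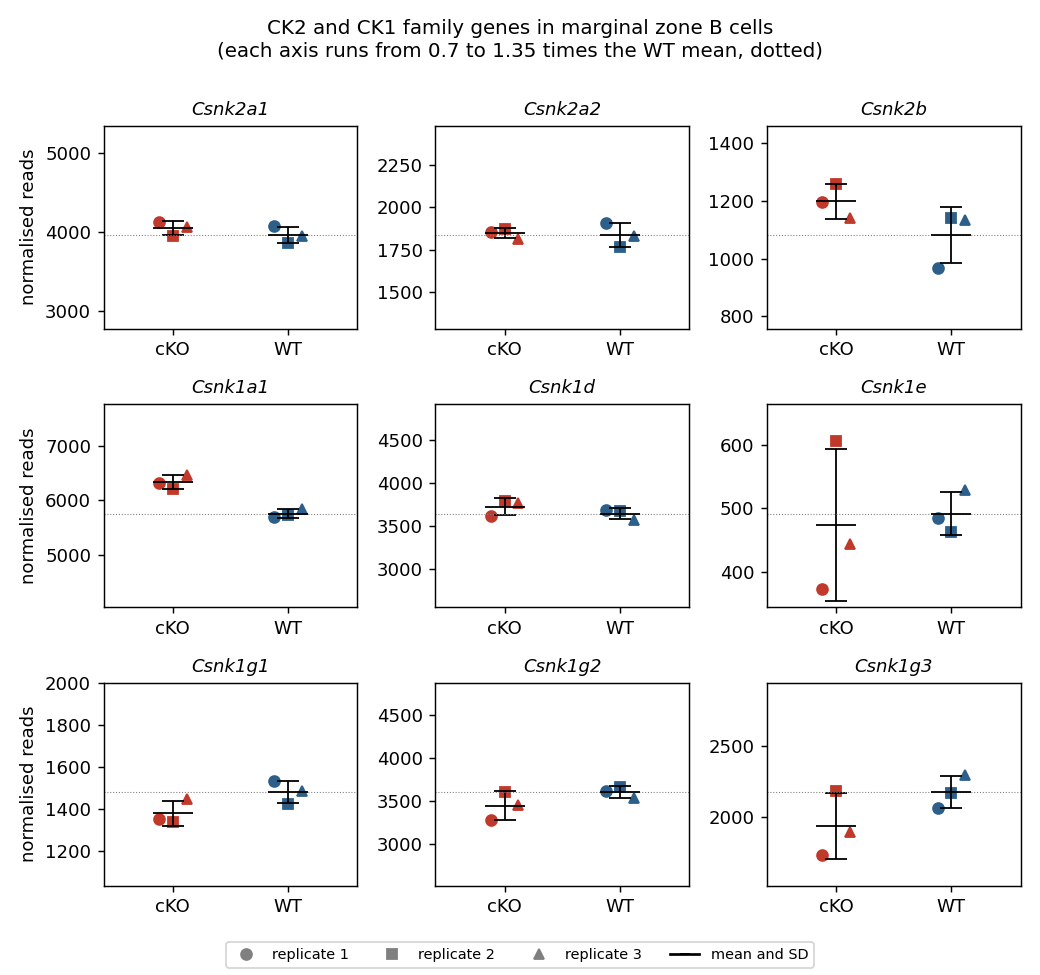
Normalised reads of the 3 CK2 and 6 CK1 genes in the 3 cKO libraries (red, left) and the 3 WT libraries (blue, right), with marker shapes for the replicate numbers and bars for the mean and SD of 3 libraries. Each axis spans the same multiples of the WT mean (dotted line) and does not start at 0. The groups are apart for Csnk1a1, where the lowest cKO library stands at 6203 and the highest WT library at 5851, and Csnk1e spreads widest in cKO.

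Csnk2a1 (ENSMUSG00000074698) stood at 4124, 3951 and 4060.4 normalised reads in cKO replicates 1, 2 and 3 and at 4069, 3861 and 3939 in WT replicates 1, 2 and 3. The highest value was in cKO replicate 1 and the lowest in WT replicate 2, and the groups overlapped. Reads of the targeted gene were thus no fewer under the cKO label (log2 difference 0.03 ± 0.05, limma adjusted p = 0.734, interval 0.947 to 1.10, and 0.01 without WT replicate 2), and a count over the whole gene does not resolve a deleted exon. Groups were taken from the labels as they stand, and "in cKO" below means in the libraries so labelled. Of the windows of the full-length transcript 55.6% also occur in Gm10031, yet Gm10031 held only 0.567% to 0.889% of the Csnk2a1 value. Few of the shared reads can thus have been counted for Gm10031. Whether they were left out or counted for Csnk2a1 alone is not stated, so the part of the gene behind these reads cannot be told. If they were left out, the Csnk2a1 value rests on the unshared windows, most of which lie in exon 13.

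Csnk2a2 (ENSMUSG00000046707), on chromosome 8, encodes the other catalytic subunit, which can take the place of CK2α in the holoenzyme. It was read at 1854, 1870.6 and 1815 in cKO and at 1909.6, 1766 and 1832 in WT. The cKO values lay within the range of the WT values, and the log2 difference was 0.01 ± 0.06 (limma adjusted p = 0.941, interval 0.925 to 1.09). Its sign turned without cKO replicate 2 (-0.0004), without WT replicate 2 (-0.02) and under rescaling that left immunoglobulin genes out (-0.0057).

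Csnk2b (ENSMUSG00000024387), on chromosome 17, encodes the regulatory subunit that holds the catalytic ones and contacts substrates. Its values were 1196, 1259 and 1140.2 in cKO and 968.5, 1142 and 1135 in WT. All but 1 of the 6 libraries lay between 1135 and 1259, and WT replicate 1 was the low one. The log2 difference of 0.15 ± 0.08 did not pass (limma adjusted p = 0.239, exact permutation p = 0.2), and it was 0.07 without WT replicate 1. Csnk2b overlaps Gpank1, a gene on the opposite strand, over 62 exon bases. Gpank1 itself was read at 531 to 578 in cKO and 446 to 488 in WT (log2 difference 0.27 ± 0.08, limma adjusted p = 0.0554), and its part in the Csnk2b values was not tested.

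Csnk1a1 (ENSMUSG00000024576) encodes CK1α and had the most reads of the family. It stood at 6331, 6203 and 6464 in cKO and at 5702, 5725 and 5851 in WT. Every cKO library was above every WT library, as was the case, in either direction, for 31.6% of all genes. The mean of cKO was 9.96% higher, with a log2 difference of 0.14 ± 0.05 and an interval of 1.02 to 1.18, and it did not pass the adjusted threshold (limma adjusted p = 0.0998, range 0.0807 to 0.27 over 16 alternatives). The exact permutation test gave p = 0.1, the smallest that 3 against 3 libraries allow. Its spread within groups was small, 0.03 on the log2 scale, and 3.25% of 400 genes of similar level had a smaller one.

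Csnk1d (ENSMUSG00000025162) and Csnk1e (ENSMUSG00000022433) encode CK1δ and CK1ε, close paralogs that set the pace of the clock. Csnk1d was read at 3618, 3796 and 3773 in cKO and at 3694, 3679 and 3568 in WT. The values overlapped, with a log2 difference of 0.03 ± 0.05 (limma adjusted p = 0.734, interval 0.947 to 1.10), and 0.02 without WT replicate 3. Csnk1e was much lower and more scattered, at 373, 606 and 444 in cKO and 484, 463 and 529 in WT. The cKO libraries held both the lowest and the highest value, with cKO replicate 2 the highest and cKO replicate 1 the lowest of all 6. The log2 difference was -0.08 ± 0.15 (limma adjusted p = 0.776, interval 0.754 to 1.19), -0.27 without cKO replicate 2 and 0.08 without cKO replicate 1.

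Csnk1e and the follicular markers were both highest in cKO replicate 2 within the cKO group. Within WT the follicular sum was highest in replicate 2 (36704), where Csnk1e was lowest (463). The marker sums of 23775, 33523 and 24160 in cKO replicates 1, 2 and 3 stood against 35569 to 36704 in WT, and Fcer2a, the low-affinity IgE receptor that marks follicular B cells, stood at 3120.0, 7644 and 3723 in these libraries and at 5852 to 6788 in WT. All 6 follicular markers were detected in every library. Their part in the values of Csnk1e was not tested, and in bulk RNA fewer cells of a type and less RNA per cell cannot be told apart. Csnk1e had a spread of 0.26 on the log2 scale, above that of 97.5% of 400 genes of similar level, whose median was 0.11.

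The CK1γ genes had lower means in cKO, and none of them passed. Csnk1g1 (ENSMUSG00000032384) was read at 1354, 1338 and 1449 in cKO and at 1533, 1425 and 1489 in WT, a log2 difference of -0.10 ± 0.06 (limma adjusted p = 0.302). Csnk1g2 (ENSMUSG00000003345) was read at 3279, 3609 and 3454 in cKO and at 3617, 3665 and 3535 in WT, a difference of -0.07 ± 0.05 (limma adjusted p = 0.473) that was -0.03 without cKO replicate 1. Both genes overlapped between the groups, Csnk1g1 through cKO replicate 3 and Csnk1g2 through cKO replicate 2.

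Csnk1g3 (ENSMUSG00000073563) also had a lower mean, with more scatter, at 1738, 2185 and 1895 in cKO and at 2068, 2167 and 2295 in WT. The groups overlapped only through cKO replicate 2, the library with the highest follicular sum of the cKO group. The log2 difference was -0.17 ± 0.08 (limma adjusted p = 0.204, interval 0.784 to 1.01). Without cKO replicate 2 it was -0.26 and passed, with a limma adjusted p of 0.0342 in a range of 0.0342 to 0.492 over 16 alternatives, and Csnk1g3 was then the only 1 of the 9 genes called. Whether the follicular markers have a part in that value was not tested.

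**Figure D3:**
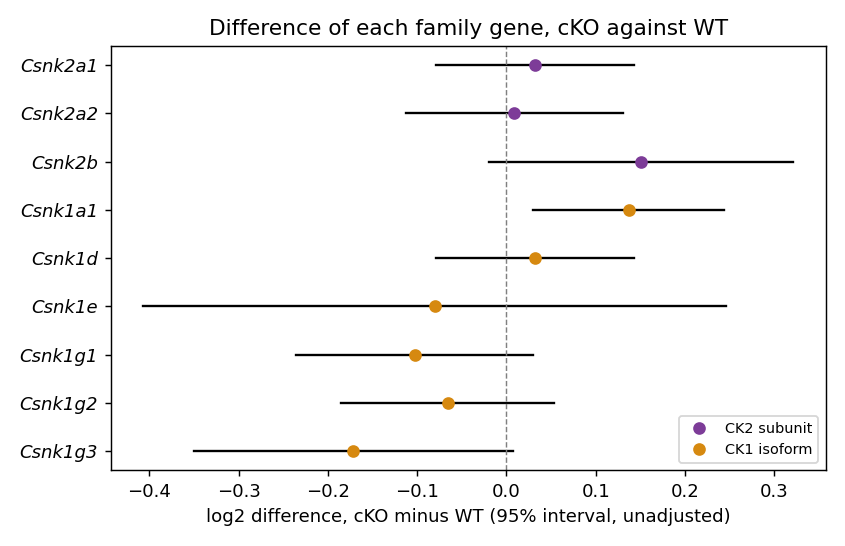
Log2 difference of cKO minus WT for the 3 CK2 subunit genes and the 6 CK1 genes, on the log2(value + 1) scale, with the unadjusted 95% interval from limma as a line. The intervals of 8 genes include 0. That of Csnk1a1 runs from 0.03 to 0.24, and its adjusted p of 0.0998 missed the threshold.

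Ratios between family members within a library do not depend on how the library was scaled, and none of 9 pairs separated cKO from WT. The Csnk2a1 to Csnk2a2 ratio of normalised reads was 2.22, 2.11 and 2.24 in cKO and 2.13, 2.19 and 2.15 in WT, so the balance of the catalytic subunit transcripts moved by less than the spread between libraries (exact permutation p = 0.5, adjusted p = 0.643 over the 9 pairs). The Csnk2b to Csnk2a1 ratio was 0.29, 0.319 and 0.281 in cKO and 0.238, 0.296 and 0.288 in WT, with WT replicate 1 again the low one. The Csnk1a1 to Csnk1d ratio was 1.75, 1.63 and 1.71 in cKO and 1.54, 1.56 and 1.64 in WT. Its groups overlapped by a narrow margin, cKO replicate 2 falling just below WT replicate 3 (exact permutation p = 0.2, adjusted p = 0.643). The Csnk1d to Csnk1e ratio ranged from 6.26 to 9.71 in cKO and from 6.74 to 7.95 in WT. The other 5 pairs had exact permutation p values of 0.3 to 0.8, and 0.1 is the smallest this design allows, so no pair could have passed 0.05.

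Levels of different genes were compared per kilobase, since longer transcripts give more reads. Per kilobase of merged exons, Csnk1d at 743 ± 19.2 normalised reads in cKO and 726 ± 13.7 in WT (SD, n = 3 each) and Csnk1g2 at 713 ± 34.1 and 746 ± 13.6 held the top places. Csnk1d had the higher mean in cKO and Csnk1g2 the higher mean in WT, and their values overlapped across the 6 libraries. Next came Csnk1a1 (603 ± 12.4 in cKO and 548 ± 7.61 in WT), Csnk2a1 (571 ± 12.4 and 558 ± 14.8) and Csnk2b (579.9 ± 28.8 and 523 ± 47.5), whose ranges over the libraries also overlapped, and then Csnk1g3 at 446 ± 52.2 and 501 ± 26.2. Csnk2a2 at 193 ± 2.98 and 192 ± 7.5 lay below all of these in every library. Csnk1g1 (88.4 ± 3.83 and 94.9 ± 3.48) and Csnk1e (72.0 ± 18.2 and 74.7 ± 5.15) were the lowest and overlapped each other.

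The order of the upper genes depends on the length used. Per kilobase of the longest transcript, Csnk1a1 led at 1551 ± 31.9 in cKO and 1411 ± 19.6 in WT, and Csnk2b came next at 1247 ± 62.0 and 1126 ± 102, while the last 4 places stayed with Csnk1g3, Csnk2a2, Csnk1g1 and Csnk1e. With either length Csnk2a1 was the higher of the catalytic subunit genes in every library. Its length counts the bases it shares with Gm10031, so its level per kilobase would be too low if reads from them were left out. The summed level of the 6 CK1 genes per kilobase of merged exons, over that of the 3 CK2 genes, was 1.88, 2.04 and 2.04 in cKO and 2.15, 2.10 and 2.08 in WT. The groups did not overlap and the exact permutation p was 0.1, the smallest possible, but with the longest transcript the ratios of 1.62 to 1.75 in cKO and 1.747 to 1.83 in WT overlapped (exact permutation p = 0.2).

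**Figure D4:**
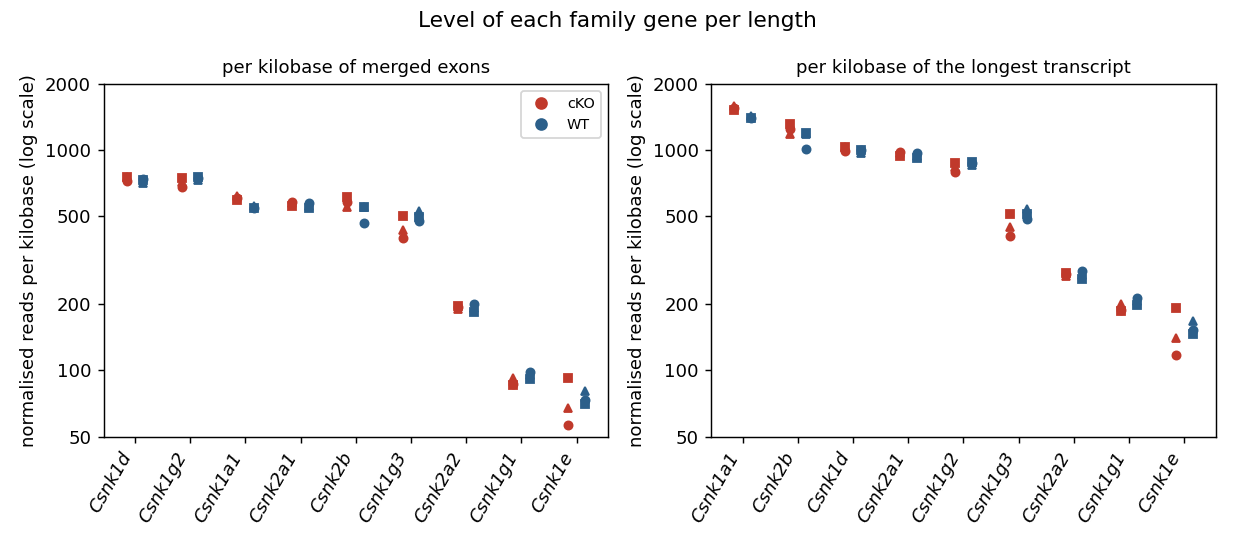
Normalised reads per kilobase on a log axis for the 9 genes in the 3 cKO (red, left) and 3 WT (blue, right) libraries, per kilobase of merged exons (left panel) and of the longest transcript (right panel), with genes in order of their mean. Csnk1g3, Csnk2a2, Csnk1g1 and Csnk1e hold the last 4 places in both panels, and Csnk1e spreads from 56.5 to 92.0 per kilobase of merged exons.

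Likeness to other genes was measured as the root mean square difference of centred log2 values over the 6 libraries, among 9545 genes whose mean value reached 100. The genes nearest to Csnk2a1 were Extl3, a glycosyltransferase of heparan sulfate synthesis (0.00977), Gapvd1, an exchange factor of endocytosis (0.0115), and Grsf1, an RNA-binding protein of mitochondria (0.0136). They share its flat profile with a small dip in replicate 2 of each group. Nearest to Csnk1d were Man1a2 (0.0108), Smim20 (0.0142) and Chd8 (0.0144). Nearest to Csnk1e were Nrm, a protein of the inner nuclear membrane, at 791, 1230.01 and 929 normalised reads in cKO and 972, 941 and 1119 in WT (0.0313), and then Ticrr, a factor of replication initiation (0.0805), and Adora2a, an adenosine receptor (0.0809). Nrm shares the cKO spread of Csnk1e, highest in replicate 2 and lowest in replicate 1. With this many candidates and 6 libraries, close matches are a description only.

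Beyond the kinases themselves, 7 lists of genes that work with them were read from the same limma fit. Their counts are descriptions, since earlier results of these data were known when the lists were written. Over the 98 distinct genes tested, 5 rose and 13 fell, together 18.4%, where 10.1% of all genes were called.

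None of 15 CK2 partners passed, where 10.1% of all genes did. These are chaperones and assembly factors such as Cdc37 and the HSP90 genes, the FACT subunits Ssrp1 and Supt16 that bind CK2 on chromatin, and the R2TP and TTT proteins, some of which CK2 phosphorylates. At an unadjusted p under 0.05 limma gave 2 of them, where it gave 26.8% of all genes, and edgeR and DESeq2 called 0, while limma without cKO replicate 2 called 1, Plekho1. Cdc37, the kinase cochaperone that CK2 itself activates, stood at 4213, 4144 and 4026 in cKO and at 3559.97, 3885 and 3625 in WT, with no overlap (log2 difference 0.16 ± 0.05, limma adjusted p = 0.0817). In 6 of the 15 the cKO and WT values stood apart, as they did in 31.6% of all genes, and the median log2 difference was 0.07 against -0.0009 over all genes.

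Among 27 genes whose proteins are CK2 substrates, 5 rose and 5 fell, or 37% against the 10.1% of all genes. Bid, a death agonist that CK2 and CK1 protect from cleavage, rose to 3525, 3079.8 and 3586 in cKO, against 2396, 2606 and 2469 in WT (0.45 ± 0.07, limma adjusted p = 0.00398). Npm1, a nucleolar chaperone, rose to 17980.1, 16102 and 16949.6 in cKO, against 12548, 14352 and 13692 in WT (0.33 ± 0.07, limma adjusted p = 0.014). In both genes every cKO library was above every WT library. Jun, a subunit of AP-1, fell to 9686, 6588 and 8427 in cKO, against 15955, 12531 and 15371 in WT (-0.84 ± 0.13, limma adjusted p = 0.00402). Notch1, a receptor that CK2 phosphorylates in its intracellular part, fell to 744, 702 and 684 in cKO, against 1022, 975 and 908 in WT (-0.45 ± 0.07, limma adjusted p = 0.00481). Jun is itself 1 of 10 early response genes, of which 6 fell, where 4.97% of all genes did. Their sums, Jun included, were 44648 to 47897 in cKO and 60152 to 77935 in WT. The part of the other early response genes in the fall of Jun was not tested.

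Bid, Jun and Notch1 were called in all 16 alternatives, whereas Npm1 lost its call without cKO replicate 3 (adjusted p = 0.0571 by limma) or WT replicate 3 (0.0565), in a range of 0.000133 to 0.0571 over the limma, edgeR and DESeq2 alternatives. The ranges of adjusted p below cover the same 16. Reads of Bid and of the opposite-strand gene Bcl2l13 share 17.7% of the Bid exons and cannot be told apart without a stated strand setting, nor can those of Jun and Junos over 7.28%. Opposite-strand genes also cover 7.5% (0610009E02Rik) and 2.91% (Gm13568) of the Notch1 exons. The count of 10 was 4 without cKO replicate 3, 5 without WT replicate 1 and 3 without WT replicate 3. The median log2 difference of the 27 was 0.01, and the list also holds Arntl and Dvl2, described below.

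The proteins that place CK1 in the cell include the FAM83 scaffolds, of which Fam83d, Fam83g and Fam83h were tested and 5 others were not, the activator Ddx3x and the anchor Akap9, which holds CK1δ and CK1ε at the centrosome and Golgi. Of these 5 genes 1 fell and 0 rose, or 20%, where 10.1% of all genes were called. Akap9 fell to 2975, 3007 and 2933 in cKO, against 3938, 3815 and 3694 in WT (-0.36 ± 0.05, limma adjusted p = 0.00274). The groups stood far apart relative to their spread, and Akap9 was called in all 16 alternatives (adjusted p up to 0.0195 by limma).

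Of 13 substrates and partners of CK1 in lymphocytes, 2 fell and 0 rose, or 15.4%, near the 10.1% of all genes. Foxo1, a transcription factor of B cell identity, fell to 3583, 4004 and 3411 in cKO, against 4322, 4640.3 and 4709 in WT (-0.32 ± 0.07, limma adjusted p = 0.0172). Nfatc1, whose nuclear export CK1 promotes, fell to 5768, 6009.8 and 6217 in cKO, against 7449, 6569 and 7162 in WT (-0.23 ± 0.06, limma adjusted p = 0.0347). Foxo1 lost its call without cKO replicate 3 (0.0729) or WT replicate 3 (0.0785), in a range of 0.00113 to 0.0785, and 7.78% of its exons lie opposite Gm20402. Nfatc1 lost it without cKO replicate 1 (0.0946), cKO replicate 3 (0.0737), WT replicate 1 (0.116) or WT replicate 3 (0.12), in a range of 0.0105 to 0.12.

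Of 15 genes of the β-catenin destruction complex, its ligases and the Wnt receptors, 2 fell and 0 rose, or 13.3%, near the 10.1% of all genes. Dvl2, a Dishevelled scaffold, fell to 617, 773 and 742 in cKO, against 972, 900.02 and 940.05 in WT (-0.40 ± 0.09, limma adjusted p = 0.0195), and Amer1, an adaptor of Apc, fell to 351, 371 and 386 in cKO, against 505, 490.1 and 417 in WT (-0.35 ± 0.10, limma adjusted p = 0.0464). Dvl2 lost its call without WT replicate 1 (0.0795) or WT replicate 3 (0.0729), in a range of 0.00239 to 0.0795. Amer1 lost it without cKO replicate 1 (0.11), cKO replicate 2 (0.0665), cKO replicate 3 (0.0914), WT replicate 1 (0.165) or WT replicate 2 (0.117), in a range of 0.0374 to 0.165. Dvl2 shares 18.3% of its exons with the opposite-strand gene Acadvl. The substrate itself, Ctnnb1, averaged 4820.4 in cKO and 4793 in WT (limma adjusted p = 0.948), and Axin1 and Lrp6 had log2 differences of 0.0016 and 0.0006.

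Clock genes included the substrates of CK1δ and CK1ε. Of 12 tested, 3 fell and 1 rose, or 33.3% against 10.1% of all genes. Per3 fell to 324, 294 and 362 in cKO, against 772, 567 and 719 in WT (-1.06 ± 0.12, limma adjusted p = 0.000756). Per1 fell to 1805, 1710.5 and 1543 in cKO, against 2953, 2160.5 and 2422 in WT (-0.57 ± 0.10, limma adjusted p = 0.00877). Nr1d2, the repressor REV-ERBβ, fell to 933, 814 and 926 in cKO, against 1460.4, 1339 and 1472 in WT (-0.68 ± 0.07, limma adjusted p = 0.000505). For these 3 genes every cKO library was below every WT library. Arntl, which encodes the activator BMAL1, rose to 1322, 1092 and 1272 in cKO, against 999, 954 and 876 in WT (0.38 ± 0.08, limma adjusted p = 0.0201). Nr1d1, the related REV-ERBα, was low, at 35.7, 15.2 and 19.6 in cKO and 45.0, 51.6 and 46.95 in WT, and just missed the threshold (-1.08, limma adjusted p = 0.0504). Per2 averaged 409 in cKO and 469 in WT without passing (-0.19, limma adjusted p = 0.204), and Clock, Cry1 and Cry2 had log2 differences between -0.03 and 0.06. Dbp averaged 250 in cKO and 265 in WT and was not called either (-0.09, limma adjusted p = 0.683).

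Per1, Per3 and Nr1d2 were called in all 16 alternatives, with adjusted p values of at most 0.0419, 0.00792 and 0.00601. Arntl lost its call without cKO replicate 1 (0.0531), cKO replicate 3 (0.0777) or WT replicate 3 (0.0872), in a range of 0.00203 to 0.0872. The sources used here do not state the hour at which spleens were taken, and its part in these differences was not tested.

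Of 17 kinases related by fold, name or acidic or primed sites (the VRK, TTBK, CLK, DYRK, GSK3 and FAM20 genes), 1 fell and 0 rose, or 5.88% against 10.1% of all genes. Dyrk2, a dual-specificity kinase that can mark MYC for degradation, fell to 342, 569.5 and 334 in cKO, against 731, 635 and 702 in WT (-0.77 ± 0.17, limma adjusted p = 0.0204). Its cKO replicate 2 stood apart from the other cKO libraries and close to WT, as did the follicular marker sum. Dyrk2 lost its call without cKO replicate 3 (0.0746), WT replicate 1 (0.0884) or WT replicate 3 (0.0781) and under robust moderation (0.0725), in a range of 0.000118 to 0.0884, and 5.25% of its exons lie opposite 4932442E05Rik. The nearest relatives of CK1, Vrk1, Vrk2 and Vrk3, had log2 differences of 0.02, -0.22 and 0.10, and Gsk3b, which acts on sites that CK1α has primed in β-catenin, 0.11, none of them past the threshold.

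**Figure D5:**
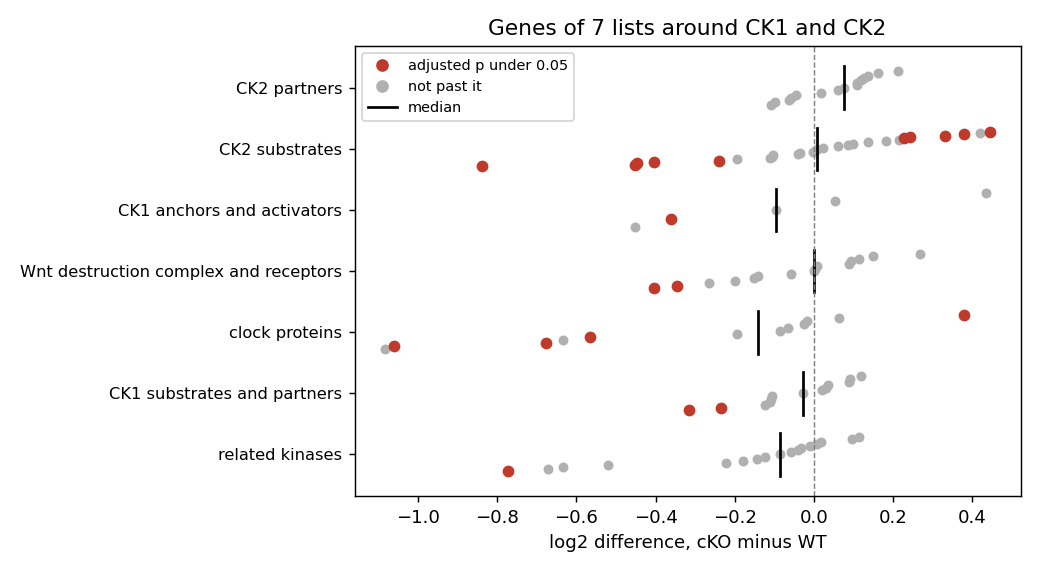
Log2 difference of cKO minus WT for each tested gene of 7 lists around CK1 and CK2, one row per list, with genes past a limma adjusted p of 0.05 in red, the others in grey and the list median as a black bar. CK2 substrates spread to both sides, with 5 red points on each, and the clock row holds the lowest red point, Per3 at -1.06.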

How the data were processed

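RNA from sorted splenic marginal zone B cells was sequenced, 3 libraries labelled cKO and 3 labelled WT. The submitters' processing notes name STAR 2.5.2b, Trimmomatic 0.36, bcl2fastq 2.17 and, as build, mm9. No source used here gives the counter, the annotation, the strand setting or the normalization tool. The deposited signal per gene is a read count divided by 1 factor per library, as its steps show (100% of values whole within 0.02 of a read). Recovered reads are those values divided by the step, found from the gaps between low values; in cKO replicate 1 the smallest value was 2 reads.

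Values were compared as log2(value + 1) with limma 3.58.1 (R 4.3.3; trended variance, genotype as the only term) for 14855 genes with a mean of at least 10, adjusted by Benjamini-Hochberg. edgeR 4.0.16 and DESeq2 1.42.0 on recovered reads were alternatives, with other pseudocounts, filters and scalings and each library left out. The fit was tested on simulated data with changes larger than any family gene showed, so that test does not bear on differences of their size. GENCODE M21, of a later build, gave the names of 14808 of 14864 identifiers, lengths, overlaps and sequences, so no coordinates are printed. The members and lists were chosen with earlier results of these data known. Named are the 9 members, up to 4 called genes per list with the smallest adjusted p, and the 3 nearest patterns of 3 members. Overlapping genes and copies, and markers, are named too. Uncalled genes of the lists, Plekho1, Fcer2a, Irf4, Jchain, Sdc1, Prdm1, Pecam1, Cdh5 and Col3a1 were named after their values were seen. One list symbol was corrected to its mouse form, Supt16, after the table was read. Depth was 18778776 to 23503756 reads per library. Some list and marker genes are not reported here.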

Additional observations from a re-analysis of the deposited data

How the results depend on the processing

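For 8 of the 9 family genes no alternative gave a call. Csnk1g3 passed without cKO replicate 2 (-0.26), and the number of family genes called was 0 to 1 over the fits that left out a library. Over those fits the log2 difference ran from -0.27 to 0.0784 for Csnk1e, whose sign turned without cKO replicate 1, from -0.26 to -0.0958 for Csnk1g3, from -0.0186 to 0.0376 for Csnk2a2, from 0.0145 to 0.0524 for Csnk2a1, from 0.0162 to 0.0534 for Csnk1d, from -0.0995 to -0.0304 for Csnk1g2 and from 0.0729 to 0.192 for Csnk2b. The sign of Csnk2a2 turned with rescaling without immunoglobulin genes (-0.0057), without cKO replicate 2 (-0.0004) and without WT replicate 2 (-0.0186). Fits that left out a library gave 496 to 1725 calls over all genes (936 without cKO replicate 1, 524 without cKO replicate 3, 514 without WT replicate 1 and 496 without WT replicate 3), 243 to 785 that rose and 223 to 940 that fell. They gave 0 to 1 calls among CK2 partners, 3 to 11 among CK2 substrates, 0 to 2 among Wnt genes, 0 to 2 among CK1 substrates and partners and 0 to 2 among related kinases, where robust moderation gave 0. The share of Csnk2a1 coding windows found in Gm10031, 95.6% for 50 bases, was 93.2%, 90.7% and 88.6% for 75, 100 and 150 bases. The log2 ratios and the CK1 to CK2 balance moved by less than the SD within groups. That SD was wide beside some differences, such as that of Csnk1d over Csnk1e (0.11, SD 0.25). It was narrow beside others, such as Csnk1a1 over Csnk1d (0.10, SD 0.05) and the balance on merged exons (-0.09, SD 0.05). Csnk1d over Csnk1e turned from 0.11 to -0.03 without cKO replicate 1, Csnk1g1 over Csnk1g2 from -0.04 to 0.02 without cKO replicate 2, and Csnk2b over Csnk2a1 was 0.02 without WT replicate 1, against 0.12 with it. The cause of these shifts was not tested.

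The replicate numbers are shared between groups in the labels. Deviations from the group mean correlated at -0.0745, -0.02 and 0.147 between same-numbered libraries, and not every library correlated best with its own number. With 3 libraries in each group these correlations cannot show whether same-numbered libraries were handled together, which the labels do not state. With the number as a replicate block 1551 genes were called, against 1494 without it, and 0 of the 9 family genes, and of the list genes named above Amer1 lost its call under it (limma adjusted p = 0.0641).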
